A study of Mus musculus with 6 samples.

Results

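The genes described here are 10 regulators of the G1 phase of the cell cycle, measured in Comma-Dβ, a line of mouse mammary epithelial cells: the D-type cyclin genes Ccnd1, Ccnd2 and Ccnd3, the kinase genes Cdk4 and Cdk6, the CIP/KIP inhibitor genes Cdkn1a, Cdkn1b and Cdkn1c, and the INK4 inhibitor genes Cdkn2a and Cdkn2b. They were chosen by symbol, and all 10 had a row among the 25655 genes of the deposited table. The siID4 cells were transfected with siGENOME siRNAs to Id4, the NT cells with the ON-TARGETplus non-targeting pool, both at 20 nM and passage 29, with harvest after 48 hr. Both groups grew in the same medium, with insulin, EGF and serum. Each group held 3 libraries that the labels call biological replicates, and the siRNA product line differed between the groups in every library. The labels do not say what separates the replicates of a group, so p-values measure the spread between these libraries, all of 1 line, which may be technical. Counts are from bulk RNA, in which fewer cells of a kind and less RNA per cell cannot be told apart.

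In G1, D-type cyclins bind CDK4 or CDK6, and the active kinases phosphorylate the retinoblastoma protein and its relatives p107 and p130, which frees E2F factors to drive genes of DNA synthesis. INK4 proteins bind CDK4 and CDK6 and block them, while CIP/KIP proteins bind cyclin-CDK complexes more widely and hold back CDK2 in particular. In the mouse mammary gland, Ccnd1 is known as the D cyclin needed for full lobuloalveolar growth in pregnancy. ID4, the siRNA target, is a helix-loop-helix protein that binds other helix-loop-helix proteins and keeps them from DNA, where such dimers recognise the E-box CANNTG.

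Totals were between 19.2 and 23.1 M expected counts per library. Id4 had 59.4, 62.2 and 48.2 CPM in the siID4 libraries, against 135, 114 and 118 CPM in the NT libraries (log2 fold change -1.11, SE 0.10, edgeR adjusted p = 8.65e-04). CPM is the gene's share of a library's counts after TMM scaling (counts per M). All 7 epithelial markers looked for were expressed, with a summed level of 2120 to 2468 CPM in siID4 and 2302 to 2634 CPM in NT libraries. Of these 2 rose and 1 fell, where 4.62% of all genes tested rose and 4.93% fell. Cdh1 (257 CPM in siID4, 218 CPM in NT; edgeR adjusted p = 0.0234) and Trp63 (77.6 CPM in siID4, 64.3 CPM in NT; 0.0279) rose and Epcam (186 CPM in siID4, 222 CPM in NT; 0.0211) fell. Krt5, Krt14, Krt8 and Krt18 did not pass, but all were lower on average in siID4 (log2 fold changes -0.18, -0.11, -0.23 and -0.15). The 4 adipocyte markers summed to at most 0.407 CPM in siID4 and 0.220 CPM in NT libraries. The 6 leukocyte markers summed to 3.35 to 3.77 CPM in siID4 and 3.03 to 3.11 CPM in NT libraries, mostly Cd68 (2.21 CPM in siID4, 2.18 CPM in NT) and Csf1r (1.16 CPM in siID4, 0.769 CPM in NT), with the pan-leukocyte gene Ptprc at 0.0151 CPM in siID4 and 0.0467 CPM in NT. Cd68 and Csf1r did not pass (edgeR adjusted p = 0.953 and 0.193). The 5 endothelial markers summed to 1.18 to 1.42 CPM in siID4 and 0.470 to 0.747 CPM in NT libraries, with Tie1 at 0 in all 6. Of 9 fibroblast markers, 7 were tested, of which 3 rose and 1 fell, where 4.62% of all genes tested rose and 4.93% fell. The fibroblast sum was 4433 to 5104 CPM in siID4 and 3151 to 3723 CPM in NT libraries, most of it collagen genes. Pdgfrb (327 CPM in siID4, 243 CPM in NT; edgeR adjusted p = 0.0217), Col1a1 and Col1a2 rose and Pdgfra (36.3 CPM in siID4, 56.0 CPM in NT; 0.0257) fell, while Dcn had 49.1 CPM in siID4 and 62.6 CPM in NT (0.372). Dpt and Lum averaged 0.353 and 0.0599 CPM in siID4 libraries and 0.211 and 0.0334 CPM in NT libraries. The fibroblast, endothelial and leukocyte sums did not overlap between the groups, and neither did 30.9% of all single genes tested. The endothelial and leukocyte sums were low, and Kdr, the 1 endothelial marker tested, did not pass (edgeR adjusted p = 0.0742). Fibroblast markers differed in direction. On average Pdgfra and Dcn were lower in siID4, and the collagen genes, Pdgfrb, Thy1, Dpt and Lum were higher. Thy1 had 0.792 CPM in siID4 and 0.371 CPM in NT (edgeR adjusted p = 0.0961). The part of these sums in the results below was not tested.

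For 7 of the 10 genes RefSeq gave a window of 250 bases before to 50 bases after a start site on GRCm38.p6, 10 windows in all. Ccnd1, Ccnd2 and Cdkn1c had no entry. The windows of Cdk4 and Cdk6 are shown because these kinases bind the same cyclins and are compared below as a ratio, and capitals mark each CANNTG. Cdk4 lies on chr10:127063285-127063584, plus strand, and Cdk6 on chr5:3343643-3343942, plus strand.
Cdk4: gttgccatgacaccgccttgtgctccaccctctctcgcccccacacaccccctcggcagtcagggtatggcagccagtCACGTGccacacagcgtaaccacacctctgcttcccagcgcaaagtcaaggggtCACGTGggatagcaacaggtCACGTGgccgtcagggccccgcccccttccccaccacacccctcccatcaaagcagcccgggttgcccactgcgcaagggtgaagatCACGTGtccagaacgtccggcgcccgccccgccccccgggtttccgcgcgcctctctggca
Cdk6: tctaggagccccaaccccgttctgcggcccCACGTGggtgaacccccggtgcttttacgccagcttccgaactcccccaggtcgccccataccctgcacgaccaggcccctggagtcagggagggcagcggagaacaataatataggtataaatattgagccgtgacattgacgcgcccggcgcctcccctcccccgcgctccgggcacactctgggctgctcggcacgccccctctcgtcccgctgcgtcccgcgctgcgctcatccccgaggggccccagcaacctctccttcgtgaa
The Cdk4 window held 4 matches, all of the form CACGTG, at 172, 118, 98 and 11 bases before the start site. Cdk6 held 1, also CACGTG, at 220 bases before its start site. CACGTG reads the same on both strands, was counted as part of CANNTG, and occurred in 7.15% of 32851 windows of this length; 0.0883% held 3 or more. CANNTG, likewise the same on both strands, occurred in 72.3% of them and in 5 of the 10 windows here. A match describes the letters only and says nothing of binding. Nor does it say whether ID4 acts on the proteins that bind a given form of CANNTG.

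The INK4 genes are shown because a single Cdkn2a row sums transcripts from 2 start sites. The upstream start gives the mRNA of p19ARF, a stabiliser of p53, and the downstream start that of p16INK4a, the CDK4 and CDK6 inhibitor. The windows lie on the minus strand of chromosome 4, at chr4:89294570-89294869, chr4:89282143-89282442 and, for Cdkn2b, chr4:89310983-89311282, and capitals again mark CANNTG.
Cdkn2a upstream start: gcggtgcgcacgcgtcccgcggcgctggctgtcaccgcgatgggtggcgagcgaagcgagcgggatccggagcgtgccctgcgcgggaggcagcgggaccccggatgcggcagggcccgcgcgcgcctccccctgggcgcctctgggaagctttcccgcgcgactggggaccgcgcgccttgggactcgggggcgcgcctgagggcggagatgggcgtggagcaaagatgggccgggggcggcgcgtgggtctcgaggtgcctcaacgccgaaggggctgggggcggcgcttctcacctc
Cdkn2a downstream start: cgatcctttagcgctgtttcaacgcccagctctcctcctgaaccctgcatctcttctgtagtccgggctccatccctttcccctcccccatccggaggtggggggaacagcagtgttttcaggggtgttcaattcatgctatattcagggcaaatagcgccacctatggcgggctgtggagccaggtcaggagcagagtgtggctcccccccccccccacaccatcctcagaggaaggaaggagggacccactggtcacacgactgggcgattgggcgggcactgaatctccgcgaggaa
Cdkn2b: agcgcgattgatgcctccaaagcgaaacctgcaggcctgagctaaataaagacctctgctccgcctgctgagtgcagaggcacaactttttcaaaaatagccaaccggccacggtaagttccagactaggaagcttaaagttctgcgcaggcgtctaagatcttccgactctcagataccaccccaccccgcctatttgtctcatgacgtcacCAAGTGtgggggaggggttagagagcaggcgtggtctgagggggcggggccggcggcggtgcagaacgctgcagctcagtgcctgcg
Neither Cdkn2a window held a CANNTG, and the Cdkn2b window held 1, CAAGTG, at 37 bases before the start site. Because the counts are per gene, p16INK4a and p19ARF mRNA could not be told apart. Of the other windows, the 2 of Ccnd3 and that of Cdkn1b held no CANNTG, and the 2 of Cdkn1a held 1 and 2. These were CAGCTG at position 38 after 1 start, and CAGGTG and CAACTG at 187 and 4 bases before the other.

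In siID4 cells Cdk6 and Ccnd1 fell and Ccnd2 rose, while Ccnd3, Cdk4, Cdkn1a, Cdkn1b, Cdkn2a and Cdkn2b did not pass the test at an adjusted p under 0.05. Of the 9 genes tested, 1 rose and 2 fell, against a background of 9.55% of the 13941 genes tested that changed, 4.62% upward and 4.93% downward. The median log2 fold change of the 9 was 0.07, and that of all genes tested 0.00. The groups did not overlap for 6 of the 9, against 30.9% of all genes tested. The genes were chosen with earlier results of these data known, so their counts, here and below, are not independent evidence. Cdkn1c was too low to be tested.

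**Figure D1:**
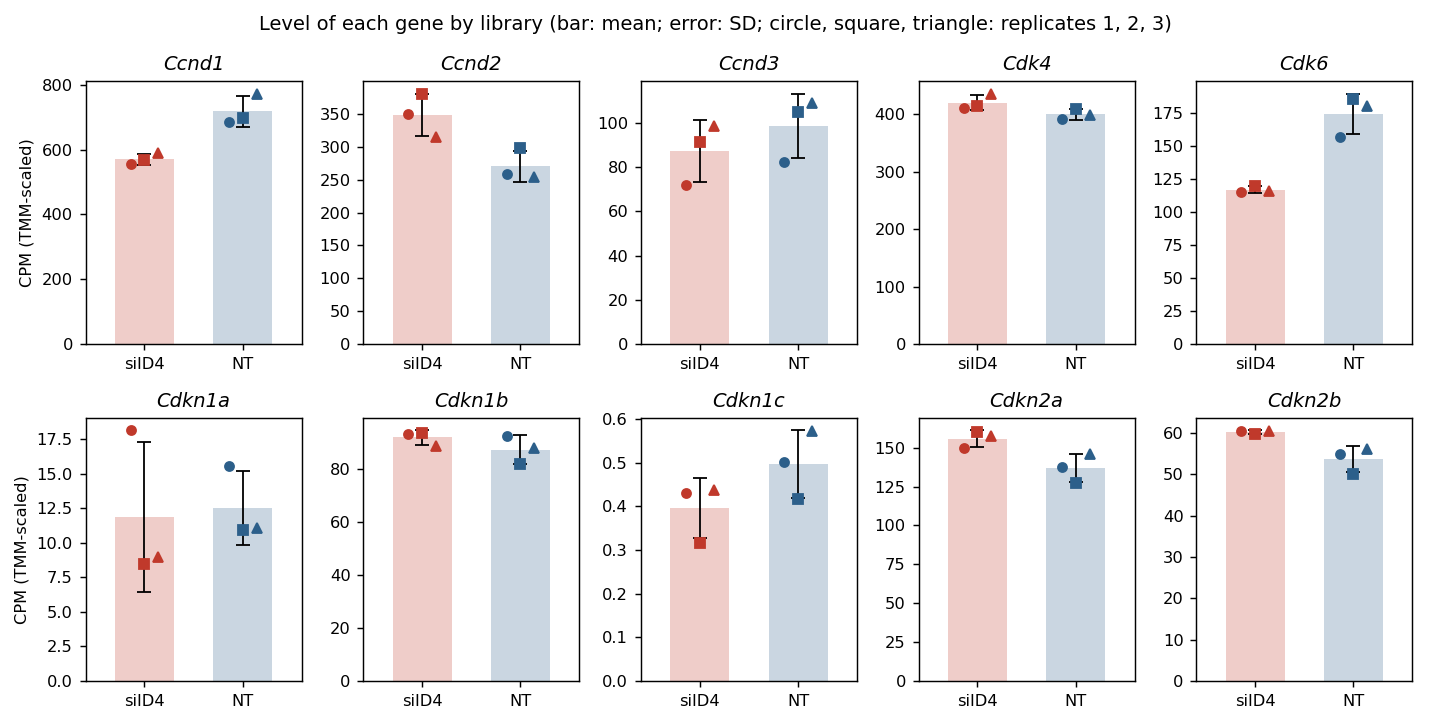
Level of each of the 10 genes in CPM (vertical axes, each from 0) in siID4 and NT libraries, with bars for means, error bars for SD and a point per library (circle, square and triangle for replicates 1, 2 and 3). Cdk6 sits at 115 to 120 CPM in all siID4 libraries and at 157 CPM or more in all NT libraries, and for Cdkn1a replicate 1 is the highest point in both groups.

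Among the D cyclins, Ccnd1 (chromosome 7, 144929931 to 144939925, minus strand), the most abundant of the family, had 554, 566 and 588 CPM in siID4 libraries, against 683, 698 and 772 CPM in NT libraries. Every siID4 library lay below every NT library. Ccnd1 thus fell, by 20.7% in mean CPM, with a log2 fold change of -0.33 (SE 0.05, 95% interval -0.46 to -0.21, edgeR adjusted p = 0.00657). The exact permutation p was 0.1, the smallest that 3 against 3 libraries allow.

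Ccnd2 (chromosome 6, 127125162 to 127152193, minus strand), the D cyclin known for its need in ovarian granulosa cells, had 350, 380 and 315 CPM in siID4 libraries, against 259, 298 and 254 CPM in NT libraries. The lowest siID4 library was above the highest NT library. Ccnd2 thus rose, by 28.9% in mean CPM, with a log2 fold change of 0.37 (SE 0.08, 95% interval 0.18 to 0.55, edgeR adjusted p = 0.0256). Its call was lost in edgeR fits without siID4 replicate 1 (adjusted p = 0.0685), siID4 replicate 2 (0.109), NT replicate 1 (0.0597) or NT replicate 3 (0.0665), at log2 fold changes of 0.30 to 0.36. Over all 6 fits that left out a library, the edgeR adjusted p was between 0.0138 and 0.109 and the log2 fold change between 0.30 and 0.44.

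Ccnd3 (chromosome 17, 47505051 to 47599691, plus strand), the third D cyclin, had 71.9, 91.1 and 98.7 CPM in siID4 libraries and 82.2, 105 and 109 CPM in NT libraries. The groups overlapped, and replicate 1 was the lowest library of both. Its log2 fold change was -0.18 (SE 0.14, 95% interval -0.50 to 0.14, edgeR adjusted p = 0.477). Within same-numbered libraries the log2 difference was steadier, at -0.19, -0.20 and -0.14, and with the replicate number as a block Ccnd3 passed (log2 fold change -0.18, SE 0.03, edgeR adjusted p = 6.30e-05).

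Per base of gene length, which allows levels of different genes to be compared, the D cyclins had a summed level of 501, 545 and 532 TPM (a length-scaled share, transcripts per M) in siID4 libraries, against 531, 582 and 605 TPM in NT libraries. Those sums overlap, while the share of Ccnd2 in them does not. Ccnd2 made up 22.5% ± 2.28 in siID4 and 15.5% ± 1.63 in NT libraries (SD, n = 3 each). Ccnd1 made up 58.0% ± 1.62 in siID4 and 64.9% ± 2.14 in NT libraries, and Ccnd3 19.5% ± 2.37 in siID4 and 19.6% ± 1.72 in NT libraries. The ratio of Ccnd2 to Ccnd1 within a library, which no library scaling can move, was 0.400, 0.425 and 0.340 in siID4 libraries, against 0.240, 0.270 and 0.208 in NT libraries. The ratio was higher in every siID4 library than in any NT library, by 0.70 on the log2 scale (exact two-sided permutation p = 0.1, the smallest possible, 0.25 adjusted over 5 ratios). The log2 difference was 0.74, 0.65 and 0.70 within same-numbered libraries. For Ccnd3 to Ccnd1 the difference in log2 ratio was 0.15, with overlapping groups (exact permutation p = 0.4, 0.6 adjusted).

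**Figure D2:**
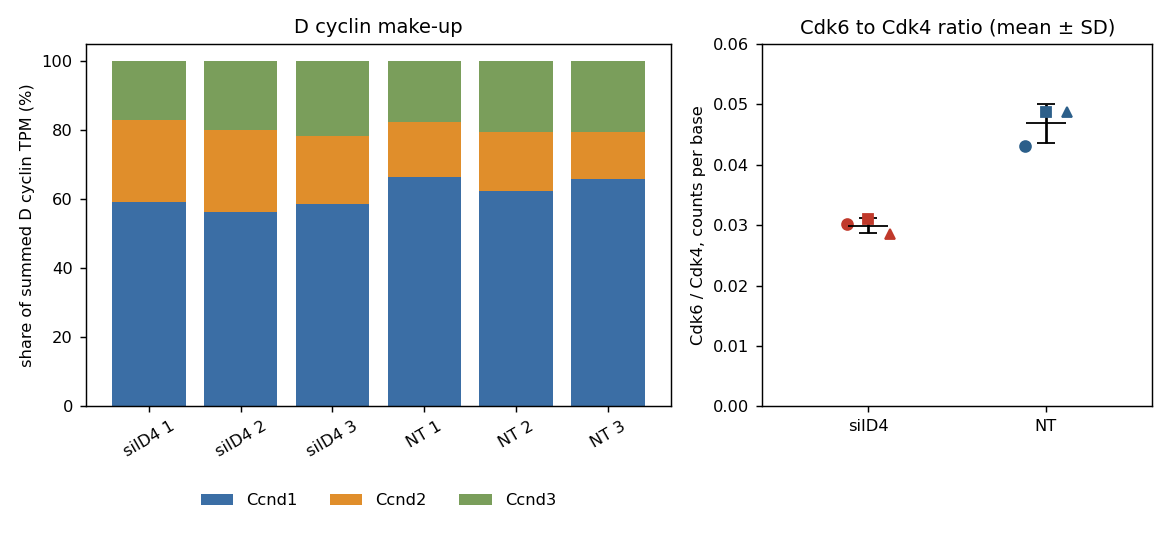
Left, share of each D cyclin gene in their summed TPM (vertical axis, %) in each library; right, ratio of Cdk6 to Cdk4 in counts per base (vertical axis from 0), with a point per library and the mean ± SD. The Ccnd2 band is 19.9% to 23.9% in siID4 libraries and 13.7% to 16.9% in NT libraries, and the Cdk6 to Cdk4 ratio is 0.0286 to 0.0311 in siID4 libraries and 0.0431 to 0.0488 in NT libraries.

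Of the kinases, Cdk6, which pairs with D cyclins as Cdk4 does (chromosome 5, 3341485 to 3531008, plus strand) had 115, 120 and 116 CPM in siID4 libraries, against 157, 185 and 180 CPM in NT libraries. The siID4 libraries were tightly grouped and all below the NT libraries. Cdk6 fell by 32.9% in mean CPM, with a log2 fold change of -0.58 (SE 0.06, 95% interval -0.72 to -0.43, edgeR adjusted p = 0.00155). It passed in all 6 fits that left out a library, with log2 fold changes from -0.65 to -0.53.

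Cdk4 (chromosome 10, 127063534 to 127067920, plus strand), the partner kinase with the same cyclins, had 411, 414 and 436 CPM in siID4 libraries and 391, 409 and 399 CPM in NT libraries. The groups did not overlap, but the gap was small. Cdk4 had a log2 fold change of 0.07 (SE 0.04, 95% interval -0.02 to 0.17, edgeR adjusted p = 0.334), and passed with the replicate block (0.07, edgeR adjusted p = 0.0325). Cdk4, with 7800 to 9953 counts per library, overlaps Tspan31 on the opposite strand, which had 1814 to 2222 counts. In the same way Ccnd1 (12515 to 17570 counts) overlaps LTO1 (297 to 368 counts). Ccnd3 (1638 to 2482 counts) likewise overlaps Bysl, which came closest in count to its partner (1301 to 1838 counts). Whether the counting used strand is not stated in the labels, so reads of these pairs may not be separate.

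Cdk4 was the most abundant of the 10 genes per base of length. It had 909 ± 22.1 TPM in siID4 and 835 ± 22.7 TPM in NT libraries (SD, n = 3 each), against 27.2 ± 0.836 TPM in siID4 and 39.1 ± 3.55 TPM in NT libraries for Cdk6. The ratio of Cdk6 to Cdk4 was 0.0301, 0.0311 and 0.0286 in siID4 libraries, against 0.0431, 0.0488 and 0.0487 in NT libraries. It differed by -0.65 on the log2 scale (exact permutation p = 0.1, the smallest possible, 0.25 adjusted over 5 ratios), and by -0.52, -0.65 and -0.77 within same-numbered libraries. The sum of both kinases, 97.1% Cdk4 in siID4 and 95.5% in NT libraries, was 915, 933 and 959 TPM in siID4 libraries and 851, 902 and 869 TPM in NT libraries.

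**Figure D3:**
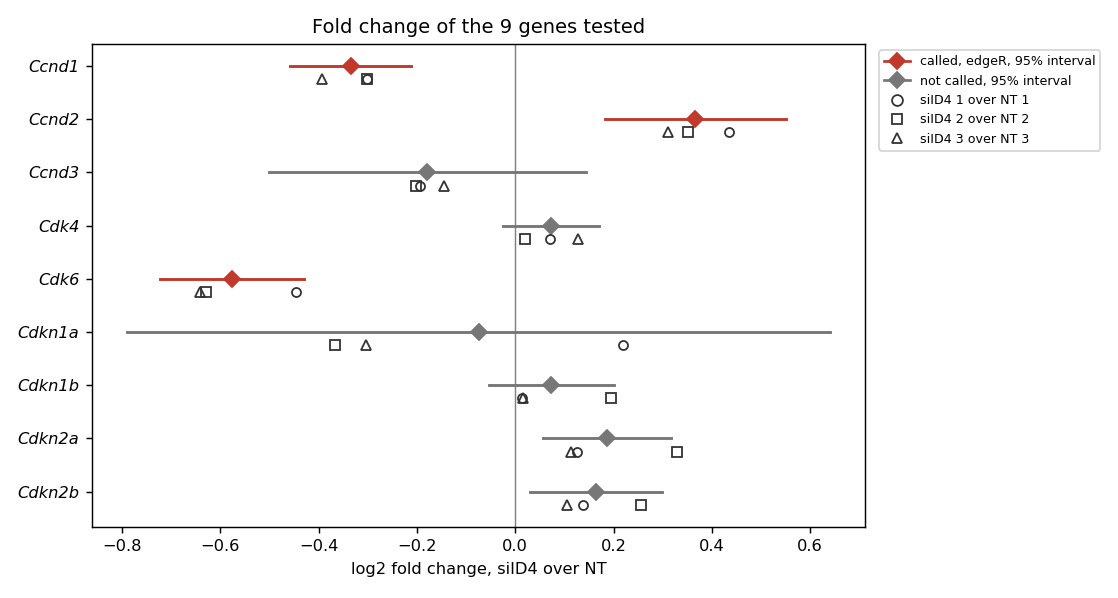
Log2 fold change of siID4 over NT (horizontal axis) for the 9 genes tested, with the edgeR estimate and its 95% interval (red where the adjusted p was under 0.05) and, under each, the difference of each same-numbered library pair. Ccnd1 and Cdk6 lie left of 0 and Ccnd2 right of it in all pairs, and Cdkn1a has the widest interval, -0.79 to 0.64.

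None of the 4 inhibitor genes tested among the 10 passed. Cdkn2a (chromosome 4, 89274471 to 89294653, minus strand) had 150, 160 and 158 CPM in siID4 libraries, against 137, 127 and 146 CPM in NT libraries. All siID4 libraries were above all NT libraries, at a log2 fold change of 0.19 (SE 0.06, 95% interval 0.06 to 0.32, edgeR adjusted p = 0.0746).

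Cdkn2b (chromosome 4, 89306299 to 89311039, minus strand) encodes the INK4 protein p15 and lies 11645 bases from Cdkn2a. It had 60.6, 59.8 and 60.4 CPM in siID4 libraries, against 55.0, 50.1 and 56.2 CPM in NT libraries, again with no overlap. Cdkn2b had a log2 fold change of 0.16 (SE 0.06, 95% interval 0.03 to 0.30, edgeR adjusted p = 0.121). The ratio of Cdkn2b to Cdkn2a within a library was 0.249 ± 0.0102 in siID4 and 0.252 ± 0.00491 in NT libraries (SD, n = 3 each, exact permutation p = 0.6). The pair of replicates numbered 2 gave the widest log2 difference for both, 0.33 for Cdkn2a and 0.26 for Cdkn2b. Both genes passed with the replicate block, Cdkn2a at a log2 fold change of 0.19 (edgeR adjusted p = 4.52e-04) and Cdkn2b at 0.16 (edgeR adjusted p = 0.00309). Cdkn2a also passed with library totals in place of TMM (edgeR adjusted p = 0.0430), a scaling that moved the median of all genes to 0.03, and without NT replicate 3 (0.0422), where the fits that left out a library ranged up to 0.249.

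Of the CIP/KIP genes, Cdkn1b (chromosome 6, 134920401 to 134925513, plus strand), which encodes p27, had 93.3, 93.5 and 88.7 CPM in siID4 libraries and 92.3, 81.7 and 87.7 CPM in NT libraries. The groups overlapped. Cdkn1b had a log2 fold change of 0.07 (SE 0.06, 95% interval -0.05 to 0.20, edgeR adjusted p = 0.467), and Cdkn1b did not pass with the replicate block (edgeR adjusted p = 0.122).

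Cdkn1a (chromosome 17, 29090976 to 29100727, plus strand) encodes p21, the inhibitor best known as a p53 target. It had 18.2, 8.46 and 8.98 CPM in siID4 libraries and 15.6, 10.9 and 11.1 CPM in NT libraries. Replicate 1 stood above the others in both groups, and within same-numbered libraries the log2 difference was 0.22, -0.37 and -0.30. Its log2 fold change was -0.07 (SE 0.31, 95% interval -0.79 to 0.64, edgeR adjusted p = 0.914), and neither direction was resolved. Without siID4 replicate 1 it was -0.52 (edgeR adjusted p = 0.110), and without NT replicate 1, siID4 replicate 2 or siID4 replicate 3 it was 0.11, 0.12 and 0.09. In 12 of 25 other p53 targets tested, replicate 1 was the highest library of both groups, against 23.5% of all genes tested. The part of this in the value of Cdkn1a was not tested. Zmat3, named after its values were seen, had 63.5, 41.2 and 42.8 CPM in siID4 and 59.8, 43.4 and 45.6 CPM in NT libraries.

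Cdkn1c (chromosome 7, 143458339 to 143461050, minus strand), the imprinted gene of p57, had 10, 7 and 10 counts in siID4 libraries and 10, 8 and 13 counts in NT libraries. No difference was detectable at this depth. With no filter on low counts the estimate on the log2 scale was -0.33 (SE 0.41, edgeR adjusted p = 0.701).

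Summed per base of length, Cdkn2a and Cdkn2b had 409, 434 and 421 TPM in siID4 libraries, against 360, 336 and 379 TPM in NT libraries. The INK4 genes Cdkn2c and Cdkn2d are not in this sum, and their log2 fold changes were below 0 (-0.15 and -0.47). The CIP/KIP genes had 76.1, 66.8 and 63.2 TPM in siID4 libraries and 70.4, 59.8 and 63.1 TPM in NT libraries. Most of the Cdkn2a and Cdkn2b sum came from the Cdkn2a row, which also holds p19ARF mRNA. That row had 337 ± 12.9 TPM in siID4 and 286 ± 17.6 TPM in NT libraries (SD, n = 3 each).

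In order of level per base of length, the NT libraries ran from Cdk4 through Ccnd1 (372 ± 23.5 TPM), Cdkn2a, Ccnd3 (112 ± 16.6 TPM), Ccnd2 (88.7 ± 8.36 TPM), Cdkn2b (72.2 ± 3.94 TPM), Cdkn1b (51.5 ± 2.94 TPM), Cdk6 and Cdkn1a (12.5 ± 2.62 TPM) to Cdkn1c (0.491 ± 0.0736 TPM). In the siID4 means 2 neighbouring pairs of that order were turned round. Cdkn2a stood above Ccnd1, at 324, 350 and 338 TPM against 297, 307 and 312 TPM, while in every NT library Ccnd1 was the higher. Ccnd2 had 118 ± 12.3 TPM and Ccnd3 103 ± 16.0 TPM in siID4 libraries, a difference within their spread. In siID4 replicate 3 Ccnd3 was the higher, at 115 TPM against 106 TPM for Ccnd2.

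With the replicate block, 7 of the 9 genes tested passed, 4 upward and 3 downward, against a background of 36.2% of all genes, 17.9% upward and 18.3% downward. Ccnd1 (log2 fold change -0.33, edgeR adjusted p = 9.57e-12), Ccnd2 (0.37, 4.45e-12) and Cdk6 (-0.57, 9.76e-13) were among them. In 8 of the 9, Cdkn1a being the exception, the 3 same-numbered differences had the same sign, against 59.5% of all genes tested. DESeq2 called 1 upward and 2 downward of the 9, against 10.7% of all genes, 4.99% upward and 5.7% downward.

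The genes most like each called gene over the 6 libraries, by Pearson's r of log2 CPM among genes averaging 5 CPM or more, were Ran (r = 0.997) and Ptgfrn (0.996) for Ccnd1, Arhgef4 (0.993) and Dnajc18 (0.993) for Ccnd2, and Eml1 (0.998) and Psat1 (0.998) for Cdk6. These are descriptions over 6 libraries that share a split into 2 groups. Ran, a GTPase of nuclear transport, had 473, 479 and 517 CPM in siID4 libraries, against 616, 651 and 754 CPM in NT libraries, and fell (log2 fold change -0.46, edgeR adjusted p = 0.00657). Psat1, an enzyme of serine synthesis, fell by 0.29 on the log2 scale (edgeR adjusted p = 0.00478), and Eml1 also fell (log2 fold change -0.50, 0.00305). Ptgfrn (-0.13, edgeR adjusted p = 0.0787), Arhgef4 (0.35, 0.108) and Dnajc18 (0.22, 0.118) did not pass.

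Of 30 other genes of the G1/S machinery listed and tested, 1 rose and 4 fell, where 4.62% of all genes rose and 4.93% fell, with a median log2 fold change of -0.05 against 0.00 for all genes. Rbl2, which encodes the pocket protein p130, had 20.8 ± 2.20 CPM in siID4 and 33.1 ± 3.75 CPM in NT libraries (SD, n = 3 each) and fell by 0.67 on the log2 scale (SE 0.11, edgeR adjusted p = 0.00598). Cdk2, the kinase of cyclins E and A, had 39.1 ± 0.660 CPM in siID4 and 53.2 ± 4.23 CPM in NT libraries and fell by 0.45 (SE 0.07, edgeR adjusted p = 0.00568). Cdkn2d, a further INK4 gene, had 10.8 ± 0.782 CPM in siID4 and 15.0 ± 0.215 CPM in NT libraries and fell by 0.47 (SE 0.09, edgeR adjusted p = 0.0128), a call lost without siID4 replicate 2 (0.0708) or NT replicate 2 (0.0515).

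Rbl1, which encodes p107, fell by 0.21 (edgeR adjusted p = 0.0451), but passed in none of the 6 edgeR fits that left out a library (0.0710 to 0.187). Myc, a transcription factor that drives growth and cell cycle entry, had 170 ± 7.80 CPM in siID4 and 142 ± 5.06 CPM in NT libraries and was the gene that rose (log2 fold change 0.26, SE 0.05, edgeR adjusted p = 0.0148), a call lost without NT replicate 2 (0.0740). The cyclin E genes Ccne1 and Ccne2 had log2 fold changes of 0.10 and -0.05 (edgeR adjusted p = 0.529 and 0.788). Rb1 had 0.23 (0.233), E2f1 -0.19 (0.114) and the INK4 gene Cdkn2c -0.15 (0.277). The replicate block gave 6 that rose and 11 that fell, where it called 36.2% of all genes, with Rb1 (edgeR adjusted p = 0.00174), E2f1 (0.00703) and Cdkn2c (0.0395) among them. The count was 3 without siID4 replicate 2, where 445 of all 14168 genes tested were called, and 2 without NT replicate 2 (631 of 14200).

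Of 28 genes that E2F factors drive, 5 of which also stand on the G1/S list, 7 fell and 0 rose, where 4.93% of all genes fell, with a median of -0.16, and 27 of the 28 fold changes were below 0. E2f8, an E2F that acts as a repressor late in the cycle, had 53.5 ± 4.48 CPM in siID4 and 72.0 ± 4.16 CPM in NT libraries (log2 fold change -0.43, SE 0.07, edgeR adjusted p = 0.00868). Mcm5, a subunit of the replicative helicase, fell by 0.37 (edgeR adjusted p = 0.0102) and Tyms, which makes thymidylate, by 0.28 (0.0150). Mcm5 (0.0690) and Tyms (0.0766) did not pass in the edgeR fit without siID4 replicate 2, nor Tyms without NT replicate 2 (0.0753). Under the replicate block 20 fell, where 18.3% of all genes fell. The count was 4 without siID4 replicate 1, where 480 of all 14092 genes tested fell, and 1 without siID4 replicate 2 (224 of 14168). It was 3 without NT replicate 2 (340 of 14200) and 4 without NT replicate 3 (482 of 14149). A fall of S-phase genes in these libraries was known when the list was made, so its direction is not independent evidence.

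**Figure D4:**
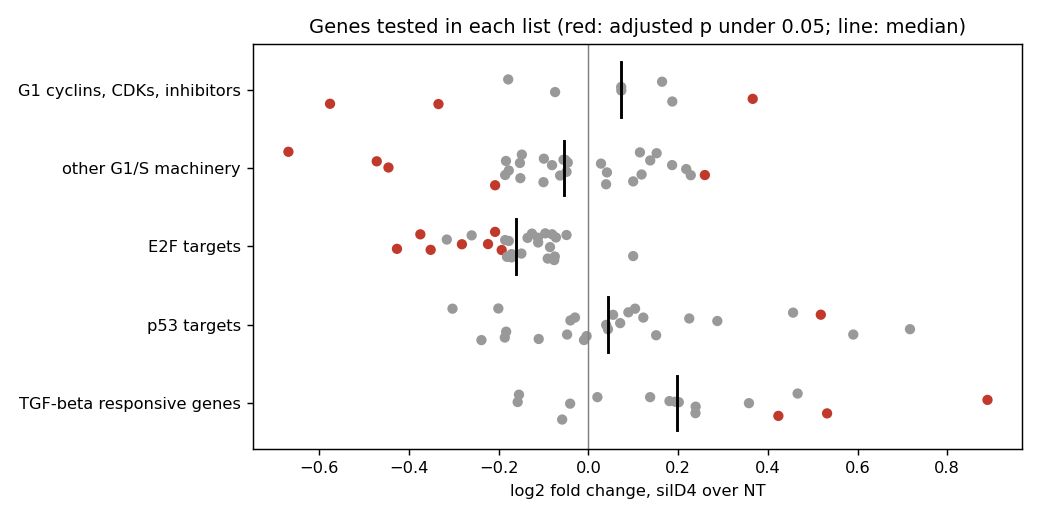
Log2 fold change of siID4 over NT (horizontal axis) for each gene tested in 5 lists (rows), red where the edgeR adjusted p was under 0.05, with a line at each list's median. The E2F targets have a median of -0.16, the other G1/S genes -0.05, the p53 targets 0.04 and the TGF-β responsive genes 0.20.

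Of 26 targets listed for p53, the factor that induces Cdkn1a, 25 were tested. Of these 1 rose and 0 fell, where 9.55% of all genes were called, with a median of 0.04. Sesn2, a stress-induced regulator of growth signalling, had 31.9 ± 3.53 CPM in siID4 and 22.3 ± 2.54 CPM in NT libraries (log2 fold change 0.52, SE 0.11, edgeR adjusted p = 0.0177), and did not pass without NT replicate 2 (0.0830) or NT replicate 3 (0.0508). Without NT replicate 3 no gene of the list passed, where 905 of all 14149 genes tested did. Mdm2, the p53 ubiquitin ligase, had a log2 fold change of -0.0041 (SE 0.08, edgeR adjusted p = 0.983), above 0 with upper quartile scaling or library totals, and Trp53 itself -0.04 (SE 0.05, edgeR adjusted p = 0.679). The next by adjusted p were Polk (-0.24, edgeR adjusted p = 0.0974), Ercc5 (0.22, 0.161) and Btg2 (0.59, 0.165). Each passed with the replicate block, at edgeR adjusted p = 0.00615, 0.00142 and 2.28e-06, and Btg2 also without NT replicate 2 (0.0340; up to 0.424 over the 6 such fits). Under the replicate block 7 rose and 4 fell, where it called 36.2% of all genes. Trp53inp1, named after its values were seen, was among those that rose (log2 fold change 0.73, edgeR adjusted p = 1.65e-10; 0.213 without the block).

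Genes that respond to TGF-β, a known inducer of Cdkn2b in epithelial cells, had a median of 0.20. Of 16 listed and tested, 3 rose and 0 fell, where 4.62% of all genes rose. Ltbp2, a latent TGF-β binding protein family member, rose by 0.53 (edgeR adjusted p = 0.00177) and Pmepa1, a feedback inhibitor of the pathway, by 0.42 (0.0299). Pmepa1 lost its call without siID4 replicate 1 (edgeR adjusted p = 0.0772), siID4 replicate 3 (0.0697), NT replicate 2 (0.0777) or NT replicate 3 (0.0626), and the lowest adjusted p of the 6 such fits was 0.0198. These genes, too, were listed with earlier results known. The fourth by adjusted p, Ldlrad4, had 0.24 (edgeR adjusted p = 0.101, and 0.00534 with the replicate block). Under the replicate block 8 rose and 2 fell, where 17.9% of all genes rose and 18.3% fell.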

How the data were processed

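For 6 libraries the authors deposited expected counts and a length per gene. Cutadapt, STAR, RSEM and the build mm10 are named in the submitters' processing notes. For annotation, strand setting and filter: not given in the sources used here. Rounding made the expected counts whole. Genes were tested in edgeR 4.0.16 (R 4.3.3, quasi-likelihood) with TMM, filterByExpr (13941 genes kept) and group as the term, with Benjamini-Hochberg adjustment over all genes and calls under 0.05. Within-library ratios used counts per base and an exact permutation test. TPM was computed from the deposited gene length. Coordinates are from GENCODE M21 on GRCm38 (mm10). The fits were also run on simulated libraries that shared nothing by replicate number. That setting is unlike these data, so it cannot show how the block fit behaves here.

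The members and lists were chosen with earlier results of these data known. Named by rule were the 10 genes, Id4, 12 fixed G1/S and p53 genes, up to 4 genes by adjusted p in each list, and the 2 genes most like each called gene; some genes under this rule are not reported here. Same-numbered libraries deviated together in all 3 pairs (correlation 0.42, 0.14 and 0.38), but the labels state no pairing. The main fit, which gave every call named without a block, therefore used group alone. The fit with the replicate number as a block is an alternative, given for named genes whose call it changes, cell type markers aside. Alternatives were other scalings, filters, DESeq2 1.42.0, limma-voom (limma 3.58.1), the block and leaving out each library.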

Additional observations from a re-analysis of the deposited data

How the results depend on the processing

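The directions and calls of Ccnd1 and Cdk6 were the same under every alternative run. With the replicate block the count of called genes was 5040 in place of 1331, that of the 9 G1 genes tested 7 in place of 3, and the lists had 17 (other G1/S machinery), 20 (E2F targets), 11 (p53 targets) and 10 (TGF-β responsive genes); 1325 of the 1331 remained. Without one library at a time the counts ranged from 445 to 1351 for all genes, 2 to 3 for the G1 genes, 2 to 4 for the G1/S machinery, 1 to 6 for the E2F targets, 0 to 1 for the p53 targets and 2 to 4 for the TGF-β list. The log2 ratios ranged from 0.60 to 0.79 for Ccnd2 to Ccnd1, 0.06 to 0.27 for Ccnd3 to Ccnd1, -0.70 to -0.61 for Cdk6 to Cdk4, 0.01 to 0.57 for Cdkn1b to Cdkn1a and -0.0547 to 0.0029 for Cdkn2b to Cdkn2a, the last changing sign without siID4 replicate 2. With library totals, 829 genes rose and 565 fell, in place of 644 and 687, and 4 G1 genes passed. Signs also changed for genes that passed in no fit: Cdkn1a (-0.52 to 0.1186 over the fits without a library; 0.1186 without siID4 replicate 2, 0.0928 without siID4 replicate 3, 0.1116 without NT replicate 1), Ccne2 (-0.0997 to 0.0309, with 0.0172 without siID4 replicate 1 and 0.0309 without NT replicate 3) and Mdm2 (-0.079 to 0.0616; 0.0023 with upper quartile scaling, 0.0245 with library totals, 0.0067 among genes averaging 5 CPM or more, 0.0616 and 0.0031 without siID4 replicates 2 and 3, 0.0578 without NT replicate 1). The cause was not tested. A change below the intervals given could not be resolved with 3 libraries per group, and Cdkn1c was limited by depth.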
